A study of Homo sapiens with 20 samples.

Results

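The long intergenic noncoding RNAs (LINC RNAs) of the count table were taken by symbol. They are the genes whose symbol starts with LINC and a number and carries no suffix for an antisense, divergent, intronic or overlapping transcript. The rule found 195 of the 12558 genes of the table, and 102 of the 195 passed the filter on low counts and were tested. The cells were HEC-1A, an established human endometrial adenocarcinoma line. They carried a stably integrated lentiviral shRNA, selected with puromycin, that targeted either GFP (labelled shNT, here Control) or EIF4G2 (labelled shDAP5, here EIF4G2KD). Both populations were separated on beads and sorted by FACS for CD133, the surface protein encoded by PROM1, and 15000 cells per sample went into bulk MARS-seq, a 3′-end method for polyadenylated RNA. The labels give 5 replicates for each of the 4 populations (CD133- Control, CD133- EIF4G2KD, CD133+ Control and CD133+ EIF4G2KD), and 19 of the 20 samples had counts, since CD133+ Control replicate 3 failed the authors' quality check. All libraries thus come from 1 line with 1 shRNA against EIF4G2. The series text gives 4 independent experiments where the labels number 5 replicates, and it does not say which number belongs to which experiment, so n counts labelled libraries and the p-values rest on a spread between libraries that may be technical.

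LINC RNAs as a class are transcribed by RNA polymerase II from their own promoters between protein-coding genes, are mostly capped, spliced and polyadenylated, and have no known protein product. The symbols do not always hold to this. Of the 195 members, RefSeq now annotates 2 as protein-coding (LINC00672 as LASP1NB, which was tested, and LINC00634 as SMIM45), 8 carry a newer name with the suffix -DT or -AS, and 20 overlap a coding gene. Many remain in the nucleus, where some act on genes nearby, as CHASERR does on CHD2, and others in the cytoplasm bind microRNAs or proteins. They are generally less abundant and more restricted to single cell types than mRNAs, and several are studied in carcinomas. EIF4G2 (DAP5) is a translation initiation factor, whereas the values here are RNA levels.

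Library size was 1679447 to 5234905 counts, so that 1 count was worth 0.186 to 0.610 CPM (counts relative to the library total after TMM scaling), and intervals and limits from counts cover counting error only. EIF4G2 was at 193 to 360 CPM in CD133- Control and 36.8 to 164 in CD133- EIF4G2KD, with no overlap, but the difference did not pass the test over all genes (log2 fold change −1.48, edgeR adjusted p = 0.123). The libraries labelled CD133+ EIF4G2KD had 130 to 350 CPM against 275 to 377 in CD133+ Control, and these ranges overlapped (log2 fold change −0.45, edgeR adjusted p = 0.523). In the CD133+ comparisons EIF4G2KD therefore stands for the label of the libraries, and replicate 1 of that label was within the control range. PROM1 followed the sort, with 0.428 to 3.31 CPM in the CD133- libraries and 11.6 to 26.4 in the CD133+ libraries. All 7 epithelial markers were present, with a summed level of 3363 to 4868 CPM in CD133- Control, 4142 to 6048 in CD133- EIF4G2KD, 3567 to 4305 in CD133+ Control and 3441 to 4018 in CD133+ EIF4G2KD. Of these, MUC1 rose in CD133+ EIF4G2KD (1.01 on the log2 scale, and 1.57 as the interaction), and KRT19 was higher in CD133- than in CD133+ EIF4G2KD cells (0.66). Their part in the results below was not tested. No fibroblast or endothelial marker (0 of 6 and 0 of 4) and of 5 immune markers only CD68, at 0 to 3.22 CPM, was found in the count table. The 4 libraries with the lowest EIF4G2 levels were CD133- EIF4G2KD replicates 2, 4 and 5 and CD133+ EIF4G2KD replicate 3, and counts are also given without them.

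MARS-seq reads the 3′ end of a transcript, and annotations place these ends differently. Between RefSeq, used for positions here, and GENCODE the 3′ end differed by 0 bases for LINC00869, 10 for LINC02582, 5720 for LINC00460, 69165 for LINC01186 and 142070 for LINC01138. The files give no read positions, so which end was counted is not known. The last 60 bases of the GENCODE canonical transcript follow for 5 of the members called below, with a polyadenylation signal (AATAAA or ATTAAA on the transcript's own strand) in capitals. LINC00869, LINC01138, LINC01186 and LINC02582 have such a signal and LINC00460 does not, and over all 10 called members 5 have one and 5 do not.
LINC00869: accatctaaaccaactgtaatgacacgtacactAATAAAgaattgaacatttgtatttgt
LINC01138: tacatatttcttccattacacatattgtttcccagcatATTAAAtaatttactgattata
LINC01186: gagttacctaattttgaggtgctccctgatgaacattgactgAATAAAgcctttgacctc
LINC02582: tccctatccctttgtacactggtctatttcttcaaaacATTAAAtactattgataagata
LINC00460: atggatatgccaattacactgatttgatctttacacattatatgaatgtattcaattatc
Of 96 tested members with such a transcript, 54.2% held a signal in these 60 bases, against 46.9% of 18866 annotated lncRNA transcripts and 78.0% of 20041 protein-coding ones. In the last 300 bases none of these 5 matched another annotated gene at 95% identity or more over 100 bases or more, whereas LINC01320 had a match of 165 bases at 95.2%, so its reads may be shared. Only GENCODE ends and canonical transcripts were searched. Differing RefSeq ends and the rest of the genome were not, so shared reads remain possible for these 5 as well. By RefSeq position LINC00869 also overlaps FAM91A2P and LOC124904409, which is annotated as protein-coding. The strand used in counting is not known, so which of these was counted is uncertain. For LINC01320 the RefSeq span (chr2:34677557-34722563) and the GENCODE transcript used for this search (chr2:33706886-34297753) do not overlap. LINC00431 is uncertain as well. RefSeq places it at chr13:110966027-110990602 (GRCh38) as a lncRNA, while GENCODE gives it a pseudogene of 159 bases. The whole pseudogene matches another annotated gene at 100% identity and TUBGCP3 at 99.4%, so reads may be shared. Positions were not compared, so the 100% match may be a second annotation of the same place.

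LINC00869 and LINC01138, whose levels fell together in CD133+ EIF4G2KD (below), lie on the long arm of chromosome 1 on opposite strands. LINC00869 is at chr1:149607012-149679523 (plus strand) and LINC01138 at chr1:148432959-148459920 (minus strand; both GRCh38). Their RefSeq promoters (build GRCh38.p14), from 250 bases before to 50 bases after the start, are chr1:149606762-149607061 and chr1:148459871-148460170. They share an unbroken run of 82 identical bases, in capitals.
LINC00869: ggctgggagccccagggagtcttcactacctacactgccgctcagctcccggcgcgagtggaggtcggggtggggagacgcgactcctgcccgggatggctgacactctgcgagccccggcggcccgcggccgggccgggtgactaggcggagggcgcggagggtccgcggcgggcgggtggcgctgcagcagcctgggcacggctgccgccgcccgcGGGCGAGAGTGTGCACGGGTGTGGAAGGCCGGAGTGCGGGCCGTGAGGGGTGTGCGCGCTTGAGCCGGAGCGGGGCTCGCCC
LINC01138: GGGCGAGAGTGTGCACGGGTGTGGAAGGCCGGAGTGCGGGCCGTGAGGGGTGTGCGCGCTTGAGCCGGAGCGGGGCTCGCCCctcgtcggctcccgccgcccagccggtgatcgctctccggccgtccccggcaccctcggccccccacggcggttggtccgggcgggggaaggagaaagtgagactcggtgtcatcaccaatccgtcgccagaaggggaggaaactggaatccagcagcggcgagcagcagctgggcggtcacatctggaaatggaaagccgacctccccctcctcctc
By the RefSeq starts, the run extends from 32 bases before the start of LINC00869 to 50 bases after it, and from position −250 to −169 relative to the start of LINC01138. The GENCODE canonical transcript of LINC00869 starts at chr1:149607344, so the run at chr1:149606980-149607061 lies wholly upstream of that start. No other window among the 35116 promoters of the RefSeq table held the run. The genome has 5 exact copies, all on chromosome 1, and 1 of them lies within LINC00623, a tested member with 2.49 CPM on average that was not called in any comparison. Among the 137 members with a promoter, which form 9316 pairs, this was the only pair that shared 20 or more bases in a row. The shared run was found after the values were known, and its part in the changes was not tested. The pair of promoters had 77.0% and 70.3% G or C.

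The LINC RNAs took a small and similar share of the counts in every population. Their summed share, with the SD over libraries, was 0.149% ± 0.008 for CD133- Control (n = 5), 0.140% ± 0.014 for CD133- EIF4G2KD (n = 5), 0.147% ± 0.014 for CD133+ Control (n = 4) and 0.135% ± 0.012 for CD133+ EIF4G2KD (n = 5). In these bulk samples fewer cells with an RNA and less RNA per cell cannot be told apart. A library had counts for 170 to 191 of the 195. The mean level of the tested members was 2.01 to 133 CPM with a median of 6.39, against 23.9 for all 10338 tested genes, and only 12 members were above 20 CPM. Their fold changes were correspondingly less precise. The median standard error was 0.32 to 0.35 on the log2 scale in the comparisons of 2 populations, against 0.23 to 0.24 for all genes.

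The 6 most abundant members were LINC00958 at 133 CPM, LINC01578 at 112, LINC01184 at 88.8, LINC00467 at 73.5, LINC01589 at 67.0 and LINC02582 at 40.2. LINC00958 is studied as a tumour-promoting RNA in several carcinomas, and LINC00467 was described as a target repressed by N-Myc in neuroblastoma. LINC01578 is now named CHASERR and represses its neighbour CHD2, and LINC01184 is now SLC12A2-DT, a divergent transcript of the ion transporter gene SLC12A2. LINC00958 had 97.5 to 160 CPM in CD133- Control, 92.4 to 174 in CD133- EIF4G2KD, 116 to 160 in CD133+ Control and 62.6 to 160 in CD133+ EIF4G2KD, so all 4 ranges overlapped. CHASERR had 82.4 to 138 CPM across the 19 libraries, and its fold change with knock-down was −0.16 (standard error 0.17) in CD133- and 0.10 (0.18) in CD133+ cells on the log2 scale. Of these 6 only LINC02582 was called in any comparison. LINC01184 had an adjusted p of 0.0380 in EIF4G2KD cells (CD133- over CD133+, log2 fold change −0.38), which was below the fold threshold.

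In the comparison of CD133+ EIF4G2KD with CD133+ Control, read by the labels of the libraries, 8 of the 102 tested members were called. EIF4G2 itself was not clearly lower here (log2 fold change −0.45, edgeR adjusted p = 0.523). A gene was called at an adjusted p below 0.05 (edgeR's quasi-likelihood test, adjusted over all genes), a log2 fold change beyond 0.58 and a mean normalized count above 10, the thresholds of the study. Of the 8, 6 fell and 2 rose. In the same comparison 5.99% of all tested genes were called, 3.40% lower and 2.59% higher, so the members' 7.84% was near the background in this fit. Other fits differed. With replicate number as a block, 20 members (19.6%) and 9.91% of all genes were called. Limma-voom with quality weights called 13 members (12.7%) and 7.75% of all genes. DESeq2, with 195 members tested, called 9 (4.62%) and 5.53% of all genes. The median log2 fold change of the members was −0.12, against 0.006 for all genes. Without the 4 libraries lowest in EIF4G2, 9 members were called (7.83%, and 6.06% of all genes), and without CD133+ EIF4G2KD replicate 1, 8 (8%, and 5.6% of all genes). Of the 8, LINC00431, LINC02582 and LINC00649 had mean normalized counts above 30, and the other five had 13.3 to 29.4.

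LINC00869 had the largest fall. It had 5.37, 12.4, 9.53 and 5.60 CPM in CD133+ Control (replicates 1, 2, 4 and 5, the order of all values given below) and 0.270, 2.04, 0, 0 and 0.834 in CD133+ EIF4G2KD, a sum of 109 against 9 counts. The highest of the latter was below the lowest of the former. Such a lack of overlap was found in this comparison for 10 members (9.80%) and for 10.1% of all tested genes. On the log2 scale it fell by 3.62, with a standard error of 0.56 (adjusted p = 0.000335). Both CD133- populations retained it, with 3.41, 4.26, 10.3, 10.2 and 6.67 CPM in Control and 4.10, 4.88, 5.31, 4.61 and 3.00 in EIF4G2KD.

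LINC01138, described as an oncogenic RNA in hepatocellular carcinoma, shares the promoter run shown above. It had 8.81, 16.3, 16.4 and 11.4 CPM in CD133+ Control and 2.43, 3.68, 7.89, 3.31 and 3.34 in CD133+ EIF4G2KD. Every knock-down library was below every control library, and replicate 3 was the highest of them. The fall was −1.67 ± 0.33 (log2, standard error, adjusted p = 0.00292). In CD133- cells it was 11.3 CPM on average both with and without the knock-down (SD 4.08 and 2.21, n = 5 each).

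LINC01186, on the X chromosome, had 9.67, 13.6, 8.87 and 13.1 CPM in CD133+ Control and 1.89, 3.68, 6.82, 3.79 and 2.78 in CD133+ EIF4G2KD, again without overlap (log2 fold change −1.60 ± 0.32, standard error, adjusted p = 0.00332). LINC00431 had 25.4, 21.7, 43.0 and 23.4 CPM in CD133+ Control and 5.40, 5.72, 10.4, 10.9 and 6.95 in CD133+ EIF4G2KD, which is −1.86 ± 0.38 on the log2 scale (standard error, adjusted p = 0.00374). These groups did not overlap either. LINC02783 and LINC00649 were closer to the threshold. LINC02783 was at 6.66 ± 2.22 CPM (SD, n = 4) in CD133+ Control and 2.82 ± 1.33 (SD, n = 5) in CD133+ EIF4G2KD (−1.20, adjusted p = 0.0223), with overlap, and the call was lost without CD133+ Control replicate 5 (adjusted p = 0.118). LINC00649 was at 14.7 ± 2.69 (SD, n = 4) and 7.11 ± 3.37 CPM (SD, n = 5), without overlap (−1.07, adjusted p = 0.0353). Its call was lost when any one of CD133+ Control replicates 1, 4 and 5 or CD133+ EIF4G2KD replicates 1, 2 and 5 was left out (adjusted p up to 0.0961).

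LINC02582 and LINC01320 rose. LINC02582, reported in the radioresistance of breast cancer cells, had 6.66, 2.71, 3.94 and 5.11 CPM in CD133+ Control and 24.8, 19.6, 9.69, 12.8 and 37.5 in CD133+ EIF4G2KD. The groups did not overlap, and replicates 1 and 5 were the highest in both. The rise was 2.14 ± 0.43 (log2, standard error, adjusted p = 0.00335). LINC01320 had 2.58, 2.33, 4.27 and 3.90 CPM in CD133+ Control and 12.7, 11.8, 11.5, 9.94 and 14.7 in CD133+ EIF4G2KD. The fold change of 1.89 on the log2 scale (standard error 0.30, adjusted p = 0.000424) came from 5 closely grouped libraries, all above all controls. LINC01781, named after its values were seen, had a larger fold change of 3.13 and an adjusted p of 0.0174, but its mean normalized count of 6.49 was under the threshold. Its counts were 36 in both CD133+ EIF4G2KD replicates 1 and 5 and 1 to 13 in the other three.

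**Figure D1:**
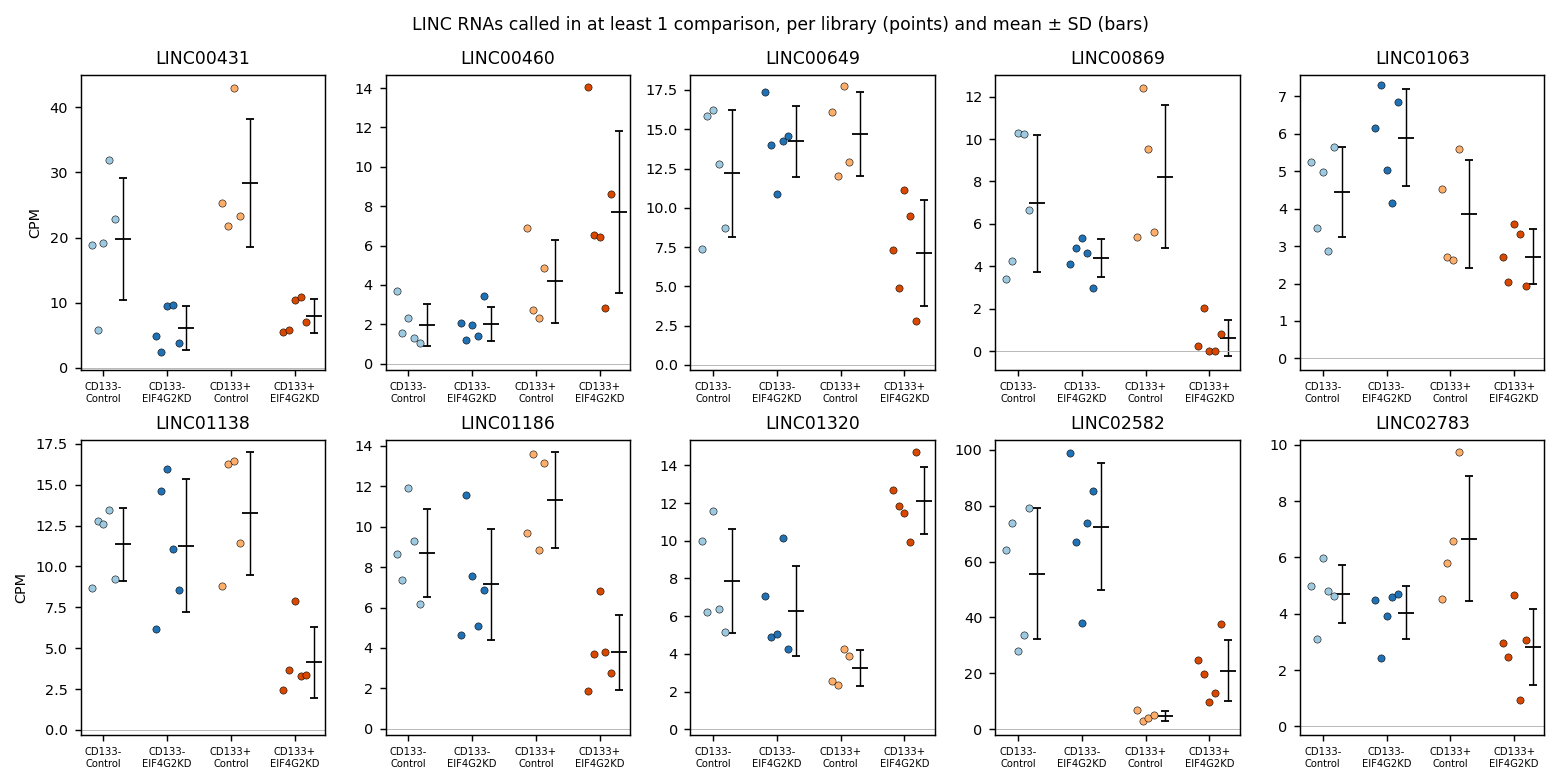
Levels of the 10 LINC RNAs called in at least 1 comparison, in CPM on a linear axis for each library (points, n = 5, 5, 4 and 5 from left to right), with the mean and SD of each population beside them. LINC00869 was near 0 in CD133+ EIF4G2KD only, and LINC02582 was lowest in CD133+ Control. The mean of LINC01320 was highest in CD133+ EIF4G2KD, with a range that overlapped those of both CD133- populations.

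In CD133- cells, the comparison of EIF4G2KD with Control called none of the 102 members by edgeR, and 0.00967% of all genes. At an unadjusted p below 0.05 there were 7 members, or 6.86%, against 10.6% of all genes. DESeq2 called 1 member, LINC00431, and limma-voom 0. A fit with replicate number as a block called 1 member (0.98%) and 0.774% of all genes. LINC00431 had 18.9, 5.81, 19.2, 32.0 and 22.8 CPM in CD133- Control and 4.85, 2.44, 9.51, 9.67 and 3.85 in CD133- EIF4G2KD, and Control replicate 2 was within the knock-down range. Its change was −1.67 ± 0.38 (log2, standard error, edgeR adjusted p = 0.126), beside −1.86 in CD133+ cells, and the difference of these effects was −0.19 (standard error 0.54, adjusted p = 0.948). Without CD133- Control replicate 2, LINC00431 passed the test (edgeR adjusted p = 0.00696), in a fit that called 0.571% of all genes. The next smallest p-values were those of LINC00173, at 4.88 ± 2.16 CPM in Control and 1.92 ± 0.798 in EIF4G2KD (SD, n = 5 each; adjusted p = 0.271), and of LINC00680, at 5.83 ± 0.936 and 3.36 ± 1.38 (SD, n = 5 each; adjusted p = 0.386). The end of LINC00680 is repeated in another gene at 96.3% identity over 297 bases.

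**Figure D2:**
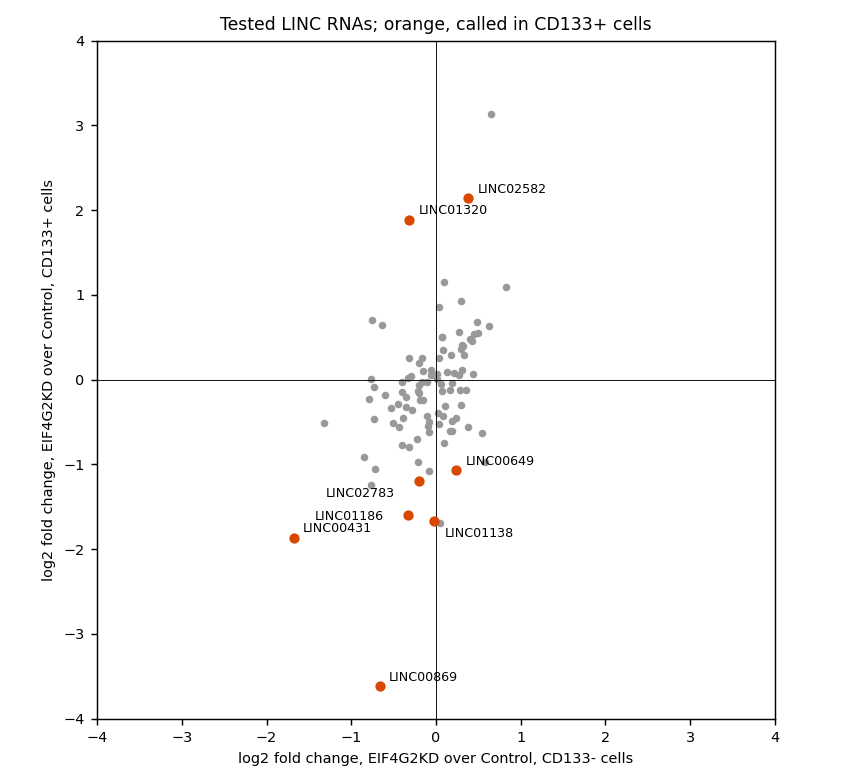
Log2 fold change of EIF4G2KD over Control in CD133- cells (x axis) and in CD133+ cells (y axis) for the 102 tested LINC RNAs. The 8 called in CD133+ cells are orange and named. LINC00431 was low in both (−1.67 and −1.86), while LINC00869 was at −0.66 and −3.62. The grey point highest on the y axis, at 3.13, is LINC01781.

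The difference between these effects was tested as an interaction, for which 2 of 102 members (1.96%) and 1.90% of all genes were called. Under the replicate block the interaction called 8 members (7.84%) and 5.69% of all genes. Knock-down effect here means EIF4G2KD over Control by label. For EIF4G2 itself it was −1.48 in CD133- and −0.45 in CD133+ cells on the log2 scale. The interaction for EIF4G2 was 1.03 (edgeR adjusted p = 0.336). The knock-down effect on LINC01320 was higher in CD133+ than in CD133- cells by 2.20 on the log2 scale (standard error 0.41, adjusted p = 0.00473). In CD133- cells this RNA was at 9.98, 6.20, 11.6, 6.40 and 5.13 CPM in Control and 7.09, 4.88, 5.03, 10.1 and 4.28 in EIF4G2KD. By its mean level the order of the populations was CD133+ Control, then both CD133- populations, then CD133+ EIF4G2KD. The ranges of both CD133- populations overlapped each other and that of CD133+ EIF4G2KD. CD133- Control and CD133+ EIF4G2KD were not compared by a test. The knock-down effect on LINC00869 was lower in CD133+ cells by 2.96 on the log2 scale, a difference of −2.96 (standard error 0.72, adjusted p = 0.0343). This second call did not hold without the 4 libraries lowest in EIF4G2 (−2.76, adjusted p = 0.133), and it was lost in 11 of the 19 fits that left out 1 library (adjusted p up to 0.0767). These were the fits without CD133- Control replicates 1 or 5, CD133- EIF4G2KD replicates 2, 3 or 4, CD133+ Control replicates 2 or 4, or CD133+ EIF4G2KD replicates 1, 3, 4 or 5. LINC01138 followed with −1.64 (standard error 0.44, adjusted p = 0.0611).

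Between the control populations, CD133- over CD133+, 1 member was called, and 0.232% of all genes. The replicate block gave 2 members (1.96%) and 0.522% of all genes. LINC02582 had 64.1, 74.0, 27.8, 33.6 and 79.1 CPM in CD133- Control against 2.71 to 6.66 in CD133+ Control, on average 55.7 and 4.61 CPM (SD 23.5 and 1.68, n = 5 and 4). The difference was 3.53 ± 0.43 (log2, standard error, adjusted p = 0.000109), and the call held in every fit that left out 1 library (adjusted p up to 0.00136). PROM1, the sorted antigen, differed in the other direction. LINC01320 averaged 7.86 CPM (SD 2.78, n = 5) in CD133- Control and 3.27 (SD 0.959, n = 4) in CD133+ Control, without overlap (1.25, adjusted p = 0.131). Here 2 members (1.96%) and 2.44% of all tested genes did not overlap. LINC02212 was at 23.4 ± 10.3 (SD, n = 5) and 44.9 ± 18.3 (SD, n = 4) (−0.93, adjusted p = 0.768). Its last 300 bases match another annotated gene at 100% identity, which may be a second annotation of the same place.

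In the EIF4G2KD cells, CD133- over CD133+, 7 members were called (6.86%, against 5.86% of all genes), 5 higher and 2 lower in CD133- cells (3.49% and 2.37% of all genes). Adding the replicate block gave 16 members (15.7%, against 9.31% of all genes). EIF4G2 itself fell below its CD133+ level in the CD133- libraries of this comparison (log2 fold change −1.24, adjusted p = 0.0204), so the 2 populations differ in its level as well as in CD133. The comparison shares its CD133+ EIF4G2KD libraries with the knock-down comparison in CD133+ cells. LINC00869 (2.75), LINC01138 (1.43), LINC00649 (1.02), LINC01320 (−0.95) and LINC02582 (1.77, all log2 fold changes) were called in both. LINC02582 had the same sign in the 2 comparisons and the others opposite signs. LINC02582 was at 98.8, 67.1, 38.0, 73.7 and 85.2 CPM in CD133- EIF4G2KD and 9.69 to 37.5 in CD133+ EIF4G2KD (1.77, standard error 0.35, adjusted p = 0.0026). Across the 4 populations its mean level was thus lowest in CD133+ Control, higher in CD133+ EIF4G2KD and highest in both CD133- populations. The ranges of both CD133- populations overlapped. The highest CD133+ EIF4G2KD library, at 37.5 CPM, was also within the CD133- Control range, and these populations were not compared by a test.

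LINC00460 and LINC01063 were called in no other comparison, and the interaction, which tests whether their difference changes with the knock-down, gave adjusted p = 0.683 and 0.322. LINC00460, which is studied as an RNA raised in head and neck and other carcinomas, had 2.05, 1.22, 1.96, 1.38 and 3.42 CPM in CD133- EIF4G2KD and 14.0, 6.54, 6.46, 2.84 and 8.62 in CD133+ EIF4G2KD, with replicate 4 of the latter inside the range of the former (−1.93, standard error 0.43, adjusted p = 0.00683). LINC01063 had 5.90 ± 1.30 and 2.72 ± 0.735 CPM (SD, n = 5 each), without overlap (1.11, standard error 0.29, adjusted p = 0.0216). Between these populations 5 members (4.90%) and 6.51% of all tested genes did not overlap. Without the 4 libraries lowest in EIF4G2, which leaves 2 in CD133- EIF4G2KD, LINC01138 alone was called (1.77, adjusted p = 0.0191), with 2.49% of all genes, and LINC02582 was at 1.51 (adjusted p = 0.0777). Without CD133+ EIF4G2KD replicate 5 there were 4 calls (4%, and 4.67% of all genes). LINC01063 was lost without CD133+ EIF4G2KD replicates 2 or 5 (adjusted p up to 0.0736). LINC01320 was lost without CD133- EIF4G2KD replicates 2, 3 or 5 or CD133+ EIF4G2KD replicates 1 or 5 (up to 0.0801). LINC00649 was lost without CD133- EIF4G2KD replicates 1, 2, 4 or 5, CD133+ Control replicate 5, or CD133+ EIF4G2KD replicates 1, 2 or 5 (up to 0.102).

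The members were also grouped by position in the genome. In CD133+ EIF4G2KD over CD133+ Control the genes of 1q had a median log2 fold change of 0.50 (454 tested genes), and those of chromosomes 9, 19q and 21 had −0.51, −0.43 and −0.45, against 0.03 elsewhere. These regions were already known from earlier results of these data. The 5 tested members on chromosome 9 had fold changes of −0.97 to −0.42 and none was called, against 22.2% of all genes there. The 5 on chromosome 21 had −1.07 to −0.45 and 1, LINC00649, was called, against 12.2% of all genes there. The 2 on 19q had a median of −1.15 and none was called, against 14.8% of all genes there. The 4 members of 1q differed among themselves. LINC00467 was at 0.50, like its region, whereas LINC00869 and LINC01138 fell against the direction of their region. Outside the 4 regions 86 members were tested and 5 called, LINC01320, LINC02582, LINC00431, LINC01186 and LINC02783, and 3.77% of all genes there.

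**Figure D3:**
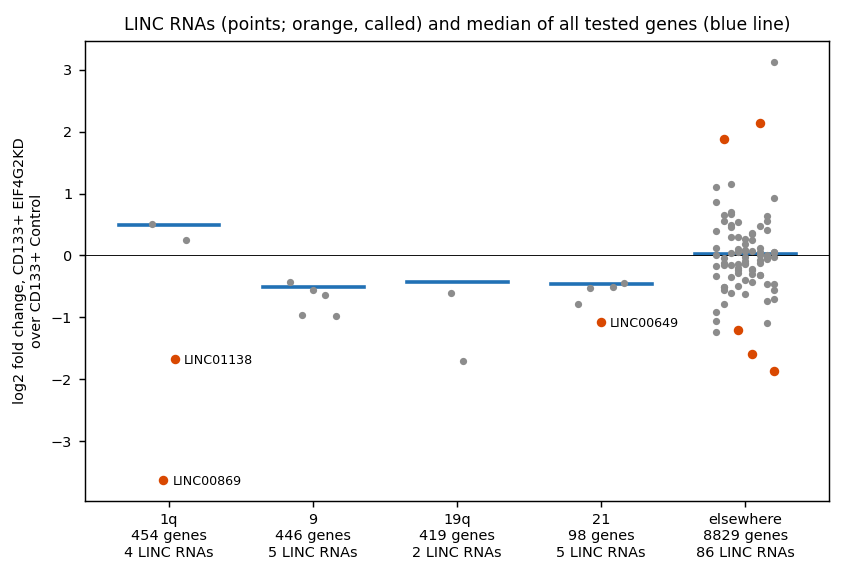
Log2 fold change of CD133+ EIF4G2KD over CD133+ Control for each tested LINC RNA (points, called ones orange) by chromosome region, with the median over all tested genes of the region as a blue line. The points of chromosomes 9 and 21 lie around or below their lines, at −0.51 and −0.45, and LINC00869 and LINC01138 lie far below the line of 1q, at 0.50.

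The nearest tested protein-coding gene was set beside each called member. LINC02783 (chr1:17189789-17196387) lies 8741 bases from PADI1, which encodes a peptidylarginine deiminase, and PADI1 fell in CD133+ EIF4G2KD by a like amount, −1.24 (standard error 0.17, adjusted p = 9.3e-05) beside −1.20. In EIF4G2KD cells, CD133- over CD133+, PADI1 was at 0.92 (adjusted p = 0.000898) and LINC02783 at 0.50 (adjusted p = 0.426). LINC00431 lies 50958 bases from ANKRD10, which also fell (−0.87, standard error 0.26, adjusted p = 0.0432, beside −1.86). The neighbours of the other called members were not called in the same comparisons, and for LINC01320, whose annotations disagree, the nearest gene was not determined. LINC02582 is far from any tested coding gene, the nearest being ZNF407 at 1247981 bases. CHD2, the neighbour of CHASERR at 1577 bases, was at 0.24 (standard error 0.16) with knock-down in CD133- cells, where CHASERR was at −0.16, and neither passed the test.

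Many members differed by replicate number. With the number as a term beside the population, 37 of the 102 members (36.3%) differed between numbers (adjusted p below 0.05, mean normalized count above 10), and so did 29.5% of all genes. The members described here were chosen after their values were seen, as those with the smallest p. LINC02009 (chromosome 3) had 2.10, 3.87, 9.94, 19.5 and 3.34 CPM in CD133- Control replicates 1 to 5, and 1.12, 3.66, 9.23, 15.2 and 1.71 in CD133- EIF4G2KD. In CD133+ Control replicates 1, 2, 4 and 5 it had 0.860, 11.6, 26.6 and 5.60, and in CD133+ EIF4G2KD replicates 1 to 5 it had 0.540, 4.49, 15.1, 26.0 and 0. Replicate 4 was thus the highest in all 4 populations, and replicates 1 and 5 were low in all.

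LINC01512 averaged 0.311, 4.96, 7.09, 8.05 and 2.51 CPM over the libraries numbered 1 to 5, and LINC00494 averaged 2.43, 7.84, 12.2, 13.9 and 3.80. LINC00205 had the same order at a higher level, from 8.93 in replicate 1 to 24.5 in replicate 4. LINC01843 went the other way, with 17.0 and 19.4 CPM in replicates 1 and 5 and 6.35 and 5.73 in replicates 3 and 4. Of the 37 members, replicate 4 had the highest mean in 18 (48.6%, against 33.6% of all genes that differed by number) and replicate 1 the lowest in 17 (45.9%, against 37.8%). LINC02582 was among the 37, with 25.2 CPM in replicate 3 and 51.7 in replicate 5 on average over populations. Since CD133+ Control lacks replicate 3, the populations are not balanced over the numbers. The labels do not say what a number stands for.

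**Figure D4:**
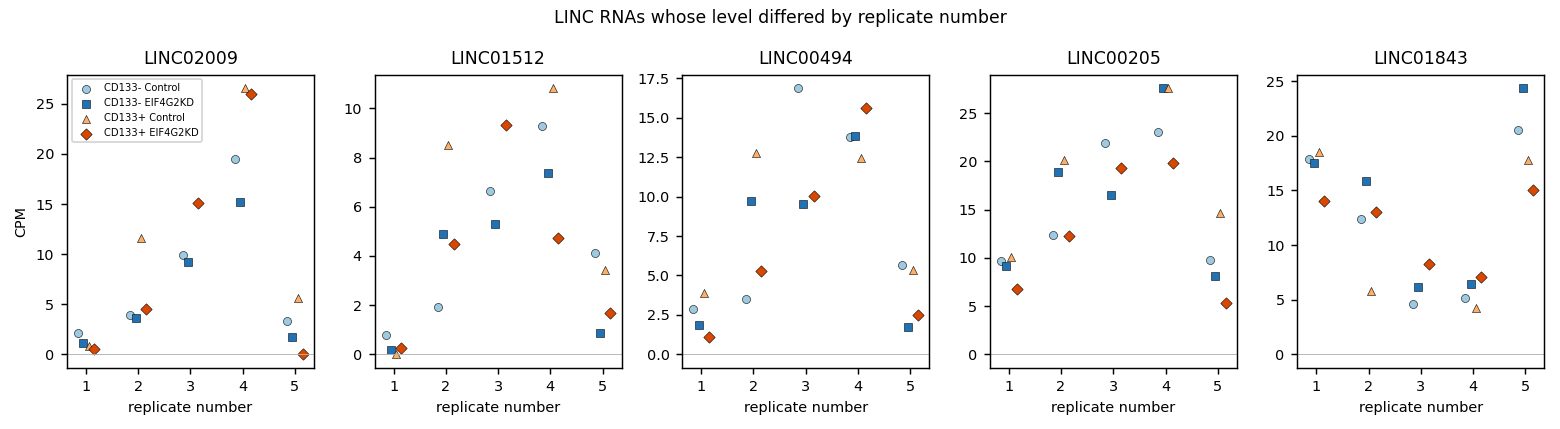
CPM (linear axis) of 5 LINC RNAs by replicate number, with a marker for each population. LINC02009, LINC01512, LINC00494 and LINC00205 were high in replicates 3 and 4 and low in 1 and 5 in all populations, and LINC01843 was the reverse. CD133+ Control has no replicate 3.

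Other long noncoding RNAs and the genes that process and degrade nuclear RNA were read for comparison. In CD133+ EIF4G2KD over CD133+ Control 5.99% of all tested genes were called. Of 19 tested lncRNAs with names of their own, CRNDE (3.21) and TERC (2.48), the RNA of telomerase, rose there and NEAT1 (−1.20) fell (log2 fold changes). Which forms of these RNAs were counted is not known. In EIF4G2KD cells, CD133- over CD133+, HOTAIRM1 (1.02) and DANCR (0.74) were higher and CRNDE (−2.17) lower, and the interaction called CRNDE (3.16). Of all tested genes, 5.86% and 1.90% were called in these. None of the 19 was called in the other 2 comparisons. Of 41 tested genes of the exosome, Integrator, cap-binding and 3′-end processing complexes, INTS3 rose in CD133+ EIF4G2KD (1.12, adjusted p = 0.006) and INTS7 was lower in CD133- than in CD133+ EIF4G2KD cells (−0.82, adjusted p = 0.0136), and none was called in the other 3 comparisons. INTS3 and INTS7 were thus 1 of 41 genes each, where 5.99% and 5.86% of all tested genes were called. Both encode Integrator subunits and lie on 1q.

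The 93 members below the filter had mean normalized counts of 1.05 to 7.24 (median 3.04), and no more than 25 counts in any library. They were seen in 10 or more libraries each, and 28 of them in all 19. LINC01444 was the only one with no count in a whole population, and was picked out for that reason. It had 2, 3, 1, 6 and 3 counts in CD133- Control, 0, 0, 1, 0 and 1 in CD133- EIF4G2KD, 5, 3, 3 and 5 in CD133+ Control and 0 in all 5 CD133+ EIF4G2KD libraries. The 0 counts allow up to 0.205 CPM (3 counts over the population), against 1.11 CPM in CD133+ Control. In an edgeR fit without the filter its log2 fold change with knock-down was −4.88 in CD133+ cells (adjusted p = 0.00626) and −2.47 in CD133- cells (adjusted p = 0.343). The difference of these effects was −2.41 (standard error 1.29, adjusted p = 0.502). The level of LINC01444 was under the mean count threshold.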

How the data were processed

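Counts of 19 bulk MARS-seq libraries were analysed. According to the submitters' processing notes and the methods, the authors ran UTAP (cutadapt, STAR 2.4.2a to hg38, HTSeq, DESeq2) and deposited whole-number counts per gene; mm10 is also listed, and the strand used in counting is not given in the sources used here. Beside the counts, 19 normalized columns were not used, nor were the authors' tables of fold changes and p-values. In R 4.3.3, edgeR 4.0.16 (minimum count 10, minimum total 15, TMM, 1 quasi-likelihood model of 4 population means) tested 10338 genes, with p-values adjusted by the Benjamini-Hochberg method. DESeq2 1.42.0 and limma 3.58.1 were alternatives. Positions were taken from RefSeq (GRCh38.p14; 174 of 195 members by symbol, 21 by synonym) and transcripts from GENCODE 44. Copies were sought with blastn 2.17.0. Named members were the 3 markers LINC02582, LINC00431 and LINC00869, every called member, the 6 most abundant, and the 3 smallest p-values of a comparison with fewer than 3 calls. Members and lists were chosen with earlier results of these data known. Depth was 1679447 to 5234905 counts per library.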

Additional observations from a re-analysis of the deposited data

Results flagged for a closer look

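Among the named members, the highest or lowest library stood far from the rest of its population in 6 of 72 groups, where chance gives about 1 in 20. LINC00431 was at 43.0 CPM in CD133+ Control replicate 4, against 21.7 to 25.4 in the other three. LINC00467 was at 89.2 CPM in CD133+ Control replicate 2, against 57.8 to 62.1. LINC00958 was at 116 CPM in CD133+ Control replicate 5, against 157 to 160, and LINC01184 at 72.4 CPM in CD133+ Control replicate 1, against 91.5 to 95.4. LINC01138 was at 7.89 CPM in CD133+ EIF4G2KD replicate 3, against 2.43 to 3.68. LINC01589 was at 42.5 CPM in CD133- Control replicate 1, against 63.0 to 68.0.

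By the interaction of the same fit, the effect of the EIF4G2KD label differed between CD133+ and CD133- cells for LINC01320 and LINC00869. The differences were 2.20 and −2.96 on the log2 scale. The call of LINC00869 was lost in 11 of the 19 fits that left out 1 library, without CD133- EIF4G2KD replicates 4 and 5 together, and without the 4 libraries lowest in EIF4G2.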

How the results depend on the processing

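Of the counts of called members, DESeq2 gave 1 in CD133- EIF4G2KD over CD133- Control (0 by edgeR), 2 in CD133- over CD133+ Control (1) and 4 for the interaction (2), where it called 0.376%, 0.35% and 2.71% of all genes. Limma-voom with quality weights gave 13 in CD133+ EIF4G2KD over CD133+ Control (8) and 4 for the interaction. These were 12.7% and 3.92% of the tested members, with 7.75% and 2.38% of all genes. As a check of pairing by replicate number, correlations of deviations were taken between libraries of different populations. Of 27 pairs with the same number, 24 were above 0.1 (−0.23 to 0.70, median 0.42). Pairs with different numbers had a median of −0.094. Of 19 libraries, 12 correlated best with their own number. The standard errors and p-values of the main fit do not take the number into account. With the number as a replicate block the count was 1 for the CD133- knock-down, 20 for the CD133+ knock-down, 2 between the Control populations, 16 between the EIF4G2KD populations and 8 for the interaction. The share of the tested members was 0.98%, 19.6%, 1.96%, 15.7% and 7.84% in the same order. The share of all genes was 0.774%, 9.91%, 0.522%, 9.31% and 5.69%. A fit of only the populations compared gave 3 between the EIF4G2KD populations (7 in the full fit), with 4.39% of all genes. A mean normalized count above 30 left 3 for the CD133+ knock-down, 2 for CD133- over CD133+ EIF4G2KD and 0 for the interaction, with 4.76%, 4.75% and 1.61% of all genes. Leaving out CD133- EIF4G2KD replicates 4 and 5 left 1 for the interaction (1.2% of all genes). Alternatives chosen after seeing the data were the 4 libraries lowest in EIF4G2 left out, which gave 1 for CD133- over CD133+ EIF4G2KD and 1 for the interaction (2.49% and 0.992% of all genes), and members outside 1q, 9, 19q and 21, which left 5 for the CD133+ knock-down and 4 for CD133- over CD133+ EIF4G2KD (3.77% and 3.95% of all genes there). Over the fits that left out 1 library each, the counts ranged from 0 to 1 for the CD133- knock-down (1 without CD133- Control replicate 2), 6 to 11 for the CD133+ knock-down, 1 to 1 between the Control populations, 4 to 9 between the EIF4G2KD populations and 1 to 4 for the interaction, whose median log2 fold change of members ranged from −0.15 to 0.085. For the CD133- knock-down, the fit without CD133- Control replicate 2 called 0.571% of all genes. The members that differed by replicate number ranged from 30 to 41. Among the 24 named results, no alternative reversed a direction; 610 of 666 refits kept the side of the threshold, 46 lost it and 10 gained it. The cause of these changes was not tested. Low counts limit many members: 41 of the 102 were below 5 CPM.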
